A study of Homo sapiens with 18 samples.

Results

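The heat shock and chaperone genes considered here are HSPA1A, HSPA1B, HSPA8, DNAJB1, DNAJB4, HSPH1, HSP90AA1, HSPD1, HSPE1 and COQ10B. They were followed in a table of RNA polymerase II (Pol II) ChIP-seq read counts, with an antibody to the form phosphorylated on serine 5 (Ser5). Rows of the table that overlap 8 windows of the hg19 genome, fixed for these 10 genes, were taken as members. The windows hold 10 of the 12123 rows, and each row is a region with an end 400 bases above its start. All 8 windows have a row, HSP90AA1 has 2, and the window shared by HSPD1 and HSPE1 has 2. Only HSPA1A has no row on its side, since the single row of the window shared with HSPA1B stands on the HSPA1B side. The HSPD1 and HSPE1 rows are named by their side of the shared window and were not assigned to either gene.

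Heat shock proteins are molecular chaperones that bind unfolded or newly made proteins and help them reach or regain their fold. HSP70 proteins work in cycles of ATP hydrolysis that J-domain proteins start and that HSP110 proteins reset by releasing ADP, HSP90 acts on clients that HSP70 hands over, and HSP60 with HSP10 forms a folding chamber in mitochondria. The transcription factor HSF1 binds heat shock elements, arrays of inverted short units, in many of these promoters, and Pol II at heat shock genes is a classic case of pausing close to the start. Serine 5 of the Pol II C-terminal domain is phosphorylated at initiation, and its ChIP signal is found mostly near transcription starts.

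The cells were Rh30, an established line of alveolar rhabdomyosarcoma, a childhood tumour with features of skeletal muscle. In all groups used here the fusion transcription factor PAX3-FOXO1 carries an FKBP tag, through which the small molecule dTAG47 directs it to degradation. The control received DMSO, the solvent, and the treated cells dTAG47 at 500 nM during 2 h or 4 h, and each of the 3 groups has 2 libraries, A and B. Whether a group's libraries come from separate cultures is not said in the labels, so p-values measure only the scatter of these libraries, which may be technical. Cells given dTAG47 without a tagged fusion were not analysed here, so an effect of the compound and one of losing the fusion cannot be told apart. Total counts ran from 962251 to 1792013 per library, and a chi-square test between libraries of 1 group gave 1.50 to 2.33 per degree of freedom, more than counting noise. Levels below are in CPM, a region's count relative to its library's total after TMM scaling, which sets the libraries to a common scale. The table gives no scale outside its own counts, so a factor common to all regions would not be seen.

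Promoter sequences of the 10 genes, among them DNAJB4, the only member called in the fit reported below, were searched for short letter patterns. They come from RefSeq and are in the GRCh38.p14 build, not the hg19 of the counted regions, so no promoter was placed on a region by position. RefSeq lists 16 starts for the 10 genes, with at least 1 for each. The heat shock element was searched on both strands as a pair of inverted units, GAANNTTC or TTCNNGAA, in the 300 bases from 250 before to 50 after a start. It was found at 8 of the 16 starts, belonging to 7 genes, against 13.5% of all 35116 promoters in the table. A longer form of 3 alternating units, GAANNTTCNNGAA or TTCNNGAANNTTC, which contains the shorter one, was found at 3 starts, those of HSPA8, HSP90AA1 and HSPD1, against 0.49% of all promoters. These matches are letters in a window and were not tested for binding. The 250 bases before 7 starts follow, 5′ to 3′, with heat shock element letters in capitals.
DNAJB4 first start (chr1:77978925-77979174, plus strand): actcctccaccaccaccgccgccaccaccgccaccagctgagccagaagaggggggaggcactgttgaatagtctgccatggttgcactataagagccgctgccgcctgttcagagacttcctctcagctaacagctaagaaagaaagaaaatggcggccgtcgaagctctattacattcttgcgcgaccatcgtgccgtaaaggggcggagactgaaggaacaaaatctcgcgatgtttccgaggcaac
DNAJB4 second start (chr1:78004689-78004938, plus strand): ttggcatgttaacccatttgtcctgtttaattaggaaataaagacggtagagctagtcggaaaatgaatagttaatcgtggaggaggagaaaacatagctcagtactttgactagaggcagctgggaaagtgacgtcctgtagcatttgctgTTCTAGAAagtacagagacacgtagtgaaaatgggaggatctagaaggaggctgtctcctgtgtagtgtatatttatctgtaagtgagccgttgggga
DNAJB1 second start (chr19:14518398-14518647, minus strand): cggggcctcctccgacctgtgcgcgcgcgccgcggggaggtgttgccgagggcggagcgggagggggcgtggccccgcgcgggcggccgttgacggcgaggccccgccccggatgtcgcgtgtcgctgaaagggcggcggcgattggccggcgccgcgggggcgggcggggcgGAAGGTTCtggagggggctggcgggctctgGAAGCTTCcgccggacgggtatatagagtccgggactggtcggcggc
HSPA1B (chr6:31827488-31827737, plus strand): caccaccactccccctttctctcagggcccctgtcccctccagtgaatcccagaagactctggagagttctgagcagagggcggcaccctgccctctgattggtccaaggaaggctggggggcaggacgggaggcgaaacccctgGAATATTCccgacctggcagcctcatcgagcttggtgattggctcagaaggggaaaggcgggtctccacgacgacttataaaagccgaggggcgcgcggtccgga
HSPA8 (chr11:123062137-123062386, minus strand): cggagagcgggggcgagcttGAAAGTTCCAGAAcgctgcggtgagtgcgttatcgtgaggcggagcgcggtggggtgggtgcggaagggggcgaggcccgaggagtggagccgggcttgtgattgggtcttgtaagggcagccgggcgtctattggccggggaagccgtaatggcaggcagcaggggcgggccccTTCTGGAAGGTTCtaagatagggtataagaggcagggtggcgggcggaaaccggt
HSP90AA1 second start (chr14:102087045-102087294, minus strand): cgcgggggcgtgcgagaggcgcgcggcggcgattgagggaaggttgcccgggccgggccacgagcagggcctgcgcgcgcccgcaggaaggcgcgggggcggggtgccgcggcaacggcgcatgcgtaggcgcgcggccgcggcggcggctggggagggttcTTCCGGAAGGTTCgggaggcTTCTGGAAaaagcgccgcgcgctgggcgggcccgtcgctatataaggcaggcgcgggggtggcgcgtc
HSPD1 second start (chr2:197499841-197500090, minus strand): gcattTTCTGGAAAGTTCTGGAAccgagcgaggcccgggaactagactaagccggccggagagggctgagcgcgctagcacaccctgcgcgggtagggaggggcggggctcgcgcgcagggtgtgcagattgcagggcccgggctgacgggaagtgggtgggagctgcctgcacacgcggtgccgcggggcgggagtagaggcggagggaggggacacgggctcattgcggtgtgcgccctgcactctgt

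At DNAJB4 the second start holds 1 element, TTCTAGAA, which begins 98 bases before the start, and the first start holds none. Whether the counted DNAJB4 region covers this element was not determined. DNAJB1 has 2 before its second start, GAAGGTTC at 77 bases and GAAGCTTC at 47, and 1 just after its last listed start. HSPA8 has 2 stretches, beginning 230 and 55 bases before its start. HSP90AA1 has 2 before its second start, at 88 and 68 bases, and HSPD1 has 1 long stretch, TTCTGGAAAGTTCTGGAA, beginning 245 bases before its second start. HSPA1B has a single pair of units, GAATATTC, 105 bases before its start. The same 8 letters stand 106 bases before the HSPA1A start. None of these 8 or 13 letter patterns was found at HSPH1, HSPE1 or COQ10B, which says only that the letters are not in these windows. A TATA box, searched as TATAAA on both strands, was found at 2 of the 16 starts, those of HSPA1A and HSPA1B, against 11.5% of all promoters. CCAAT, also on both strands, was found at 9 of the 16, against 34.6%.

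In DMSO the members spanned a wide range of Ser5 Pol II. All regions have the same length, so length does not enter the order of their CPM levels. Differences between regions in copy number, read mapping or background were not examined, so the order is one of counts. HSP90AA1, the stress-inducible cytosolic HSP90, had the highest level at its left region, with 263 ± 4.84 CPM (SD, n = 2), above 98.4% of all regions. DNAJB1, the J-domain partner of inducible HSP70, followed with 236 ± 13.2 CPM, above 97.9%. HSPA8, the constitutive HSP70, had 97.1 ± 15.4 CPM. The regions on the HSPD1 side of its window and at HSPA1B lay close together at 77.3 ± 13.6 and 77.0 ± 6.36 CPM. HSPH1 (58.1 ± 1.84 CPM), the right region of HSP90AA1 (52.1 ± 4.97), the HSPE1 side (51.3 ± 3.0 CPM) and COQ10B (39.6 ± 7.88) came next. DNAJB4 was the lowest, with 31.3 ± 3.09 CPM, above only 10.2% of all regions. Libraries of neighbours in this order overlapped for HSPA8 and the HSPD1 side, and for the HSPD1 side and HSPA1B. They also overlapped for the right region of HSP90AA1 and the HSPE1 side, and did not for the other 6 pairs.

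**Figure D1:**
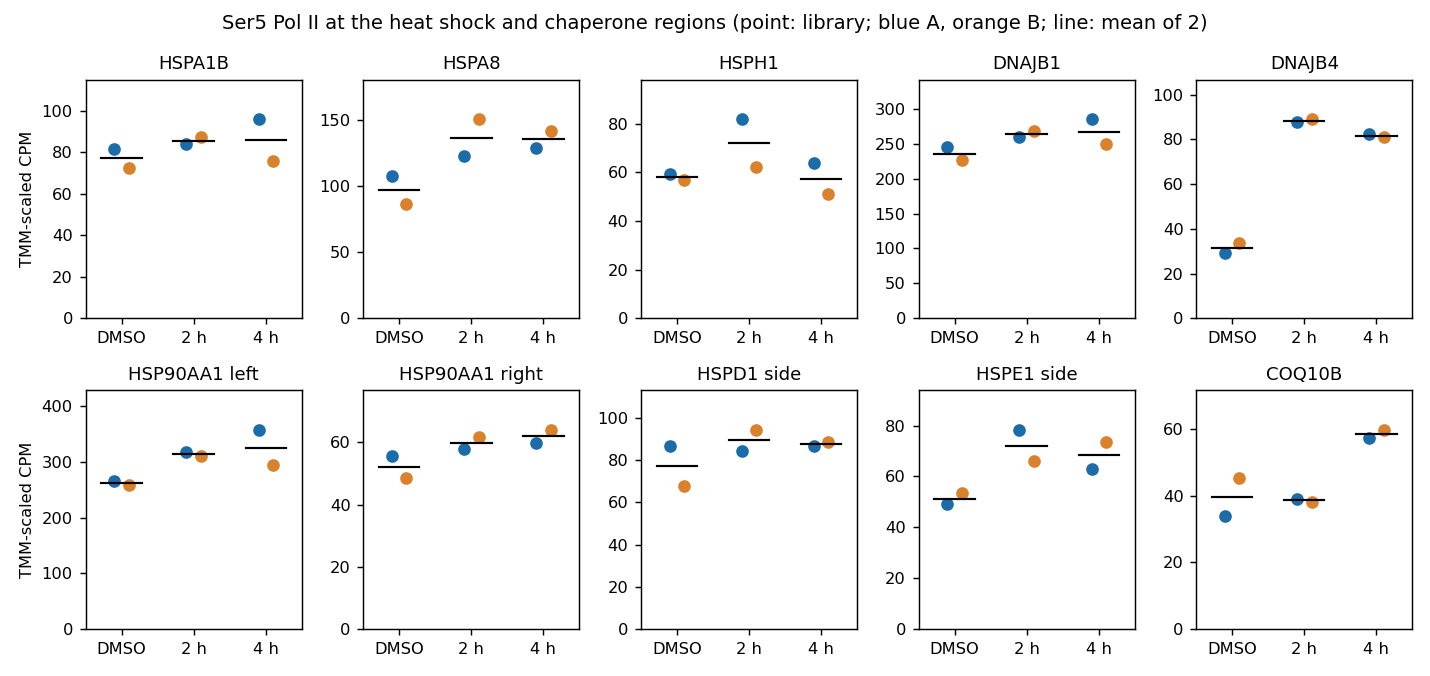
TMM-scaled CPM (y axis, from 0 and with its own scale in each panel) of the 10 member regions in DMSO, 2 h and 4 h of dTAG47. Points are libraries A (blue) and B (orange) and lines the means of 2; DNAJB4 goes from 29.2 and 33.5 CPM in DMSO to between 81.0 and 88.9 CPM in the 4 treated libraries.

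DNAJB4 encodes a J-domain protein of the HSP40 family, a co-chaperone of HSP70. Its region lies on chromosome 1 at 78469753 to 78470153. Libraries A and B had raw counts of 54 and 49 there under DMSO, of 126 and 117 after 2 h, and of 131 and 76 after 4 h. As levels these are 29.2 and 33.5 CPM in DMSO, 88.0 and 88.9 at 2 h, and 82.5 and 81.0 at 4 h. All 4 treated libraries were far above both DMSO libraries, and the libraries of a group lay close together. Ser5 Pol II rose 2.84-fold at 2 h (log2 fold change 1.50, SE 0.18, adjusted p = 3.6e-08 by Benjamini-Hochberg in edgeR's quasi-likelihood test) and 2.63-fold at 4 h (1.39, SE 0.18, adjusted p = 1.01e-06). Among all regions this was the fold change of rank 5 at 2 h and rank 4 at 4 h, counted from the highest. From above 10.2% of regions in DMSO, the level of DNAJB4 moved to above 71.4% at 2 h and 67.0% at 4 h. Within the members it went from the lowest of the 10 to the fifth at 2 h and to the sixth at 4 h.

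The rise at DNAJB4 can also be read from raw counts within a library, where no scaling enters. DNAJB4 made up 2.87% and 3.53% of the counts over the 10 member regions in DMSO, 7.25% and 7.24% at 2 h, and 6.45% and 6.87% at 4 h. RefSeq's starts of DNAJB4 are 25764 bases apart in GRCh38.p14, the first of them beside FUBP1, a regulator of MYC transcription. In the count table, the next region to the left of DNAJB4 is 24892 bases away, outside the window, at 78444861 to 78445261. It was looked at because RefSeq lists separate starts for DNAJB4, and after its values had been seen. Its levels were 72.9 and 61.6 CPM in DMSO, 87.3 and 79.1 at 2 h, and 76.2 and 85.2 at 4 h. It was not called at 2 h (log2 fold change 0.30, 95% interval -0.02 to 0.61, adjusted p = 0.38) or at 4 h (0.24, -0.08 to 0.56, adjusted p = 0.568). Raw counts at DNAJB4 were 0.400 and 0.544 times those of this neighbour in DMSO, 1.01 and 1.13 times at 2 h, and 1.08 and 0.950 times at 4 h. Ratios of the DMSO libraries lie below those of all 4 treated libraries, and the ratio itself was not tested.

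The other J-domain member, DNAJB1, has its region on chromosome 19 at 14628935 to 14629335. Its levels were 245 and 227 CPM in DMSO, 260 and 268 at 2 h, and 285 and 249 at 4 h. Treated libraries stand above the DMSO libraries, at 4 h in library B by a small margin. This gave a log2 fold change of 0.16 at 2 h (95% interval -0.13 to 0.45, edgeR adjusted p = 0.676) and 0.18 at 4 h (-0.11 to 0.48, adjusted p = 0.654). Both intervals lie below those of DNAJB4 at the same times, 1.15 to 1.86 and 1.03 to 1.76. No test compared the genes with each other.

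**Figure D2:**
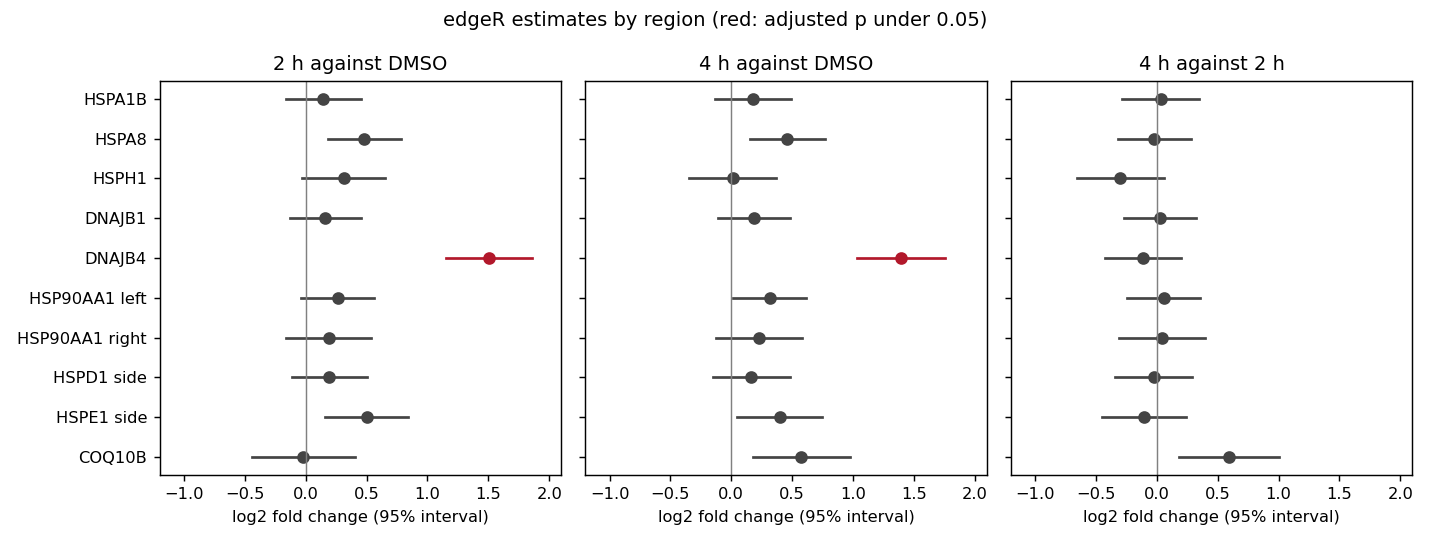
Log2 fold changes (x axis) of the 10 member regions for 2 h against DMSO, 4 h against DMSO and 4 h against 2 h, as edgeR estimates (points) with 95% intervals (bars). Red marks an adjusted p under 0.05, reached by DNAJB4 at 2 h (1.50) and 4 h (1.39), while the other 9 regions lie between -0.02 and 0.50 at 2 h and between 0.01 and 0.58 at 4 h.

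Among the HSP70 genes and their partner HSPH1, no region was called, and HSPA8 came closest. HSPA8 encodes the constitutive HSC70 of the cytosol, and its region lies on chromosome 11 at 122932389 to 122932789. Levels were 108 and 86.2 CPM in DMSO, 123 and 151 at 2 h, and 129 and 142 at 4 h, so that the treated libraries were all above the DMSO libraries. The log2 fold change was 0.48 at 2 h (SE 0.15, 95% interval 0.18 to 0.78, edgeR adjusted p = 0.0712) and 0.46 at 4 h (SE 0.15, 0.15 to 0.77, adjusted p = 0.114). HSPA8 missed the threshold of 0.05 at both times in this fit. With the column letter as a block, which pairs the A libraries and the B libraries, it passed at 2 h (0.47, adjusted p = 0.00666) and at 4 h (0.45, adjusted p = 0.014). Without the block it passed at 2 h without DMSO library A (0.66, adjusted p = 0.0298), without 4 h library A (0.48, 0.0414) and without 4 h library B (0.48, 0.0407). It had a log2 fold change of 0.34 (adjusted p = 0.522) without 2 h library B and 0.35 (0.299) without DMSO library B. A fit of DMSO and 2 h alone gave an adjusted p of 0.0404.

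HSPA1B, with HSPA1A the stress-inducible HSP70, has its region on chromosome 6 at 31795376 to 31795776. No row stands in the first 13176 bases of the shared window, and RefSeq orders HSPA1A before HSPA1B along the chromosome, which puts this row on the HSPA1B side. Levels were 81.5 and 72.5 CPM in DMSO, 83.8 and 87.4 at 2 h, and 95.8 and 75.6 at 4 h, and the 4 h libraries overlap the DMSO libraries. Its log2 fold change was 0.14 at 2 h (95% interval -0.17 to 0.45, edgeR adjusted p = 0.738) and 0.18 at 4 h (-0.14 to 0.49, adjusted p = 0.704). These values carry an uncertainty of mapping. The HSPA1A and HSPA1B promoters of RefSeq are identical at 277 of 301 aligned positions, or 92.0%, and the sources used here do not give how reads that match both genes were counted.

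HSPH1 encodes HSP105, an HSP110 protein that exchanges the nucleotide of HSP70. Its region, on chromosome 13 at 31735700 to 31736100, had 59.4 and 56.8 CPM in DMSO, 81.7 and 62.3 at 2 h, and 63.6 and 51.1 at 4 h. Both 2 h libraries stand above DMSO but far from each other, and the 4 h libraries lie on either side of DMSO. The log2 fold change was 0.31 at 2 h (95% interval -0.03 to 0.65, edgeR adjusted p = 0.405) and 0.01 at 4 h (-0.35 to 0.37, adjusted p = 0.99).

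HSP90AA1 has a pair of regions 53028 bases apart on chromosome 14, and RefSeq's starts of this gene are 52705 bases apart in GRCh38.p14. At the left region, 102553136 to 102553536, levels were 266 and 259 CPM in DMSO, 318 and 312 at 2 h, and 357 and 294 at 4 h. Treated libraries were all above DMSO, with the widest spread at 4 h. Against DMSO the log2 fold change was 0.26 at 2 h (95% interval -0.04 to 0.56, edgeR adjusted p = 0.439) and 0.32 at 4 h (0.02 to 0.62, adjusted p = 0.341), where it passed with the block by column letter (0.32, adjusted p = 0.038). The right region, 102606164 to 102606564, had 55.6 and 48.6 CPM in DMSO, 58.0 and 61.6 at 2 h, and 59.9 and 63.9 at 4 h. Its log2 fold change was 0.19 at 2 h (-0.16 to 0.54, adjusted p = 0.686) and 0.23 at 4 h (-0.12 to 0.58, adjusted p = 0.637). Raw counts at the left region were 4.79 and 5.34 times those at the right one in DMSO, 5.49 and 5.06 times at 2 h, and 5.97 and 4.60 times at 4 h, so that the ratios of the groups overlap. One further region ended 412 bases before the window. It had 72.4 and 94.4 CPM in DMSO, 108 and 115 at 2 h, and 73.7 and 126 at 4 h, and its edgeR adjusted p was 0.193 and 0.69.

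The share of a library's counts in the 3 highest regions of the table differed between libraries. For A and B it was 1.77% and 2.61% in DMSO, 2.61% and 3.21% at 2 h, and 2.61% and 4.17% at 4 h. Library A has the lower share in each group. The lowest share is in DMSO and the highest at 4 h, so the share is partly tied to treatment. It also comes from the same counts, so a fit with it cannot fully separate share from treatment. With this share as a covariate, the left region of HSP90AA1 passed the threshold at 2 h (log2 fold change 0.36, edgeR adjusted p = 0.0454) and at 4 h (0.48, adjusted p = 0.0191). This fit called 364 regions higher and 135 lower at 2 h, and 191 and 109 at 4 h. DNAJB4 had 1.49 (adjusted p = 2.52e-11) and 1.37 (adjusted p = 8.95e-07) in the same fit, close to its values without the covariate.

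HSPD1 and HSPE1 encode HSP60 and HSP10, the mitochondrial chaperonin and its lid, and are neighbours transcribed in opposite directions. Their RefSeq starts are 105 bases apart for the first HSPD1 start and 539 for the second, and the first HSPD1 promoter window shares 204 bases with that of HSPE1. The regions of their window on chromosome 2 are 694 bases apart. They are named HSPD1 side and HSPE1 side by left and right order alone. With starts this close, their levels and ratios cannot be assigned to 1 gene or the other. On the HSPD1 side, at 198364273 to 198364673, levels were 86.9 and 67.7 CPM in DMSO, 84.5 and 94.3 at 2 h, and 87.0 and 88.4 at 4 h. At 2 h the libraries overlap the DMSO libraries, and the 4 h libraries lie just above them. The log2 fold change was 0.19 at 2 h (95% interval -0.12 to 0.50, edgeR adjusted p = 0.63) and 0.17 at 4 h (-0.15 to 0.48, adjusted p = 0.735).

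On the HSPE1 side, at 198364967 to 198365367, levels were 49.1 and 53.4 CPM in DMSO, 78.2 and 66.1 at 2 h, and 63.0 and 73.5 at 4 h, and all treated libraries were above DMSO. The log2 fold change was 0.50 at 2 h (SE 0.17, 95% interval 0.16 to 0.84, edgeR adjusted p = 0.105) and 0.40 at 4 h (0.04 to 0.75, adjusted p = 0.301), which did not pass the threshold. With the block by column letter it passed at 2 h (0.50, adjusted p = 0.033). Raw counts on the HSPE1 side were 0.565 and 0.788 times those on the HSPD1 side in DMSO, 0.926 and 0.702 times at 2 h, and 0.725 and 0.831 times at 4 h, and the groups overlap. A region that ended 53 bases before this window had 37.3 and 54.1 CPM in DMSO, 64.9 and 59.3 at 2 h, and 58.6 and 69.2 at 4 h. It was not called (log2 fold change 0.47 and 0.49, edgeR adjusted p = 0.197 and 0.219).

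COQ10B, next to HSPD1 on the chromosome, encodes a mitochondrial protein that binds coenzyme Q and is not a chaperone. Its region, on chromosome 2 at 198318170 to 198318570, had 34.0 and 45.2 CPM in DMSO, 39.1 and 38.0 at 2 h, and 57.3 and 59.7 at 4 h. Both 2 h libraries lie between the DMSO libraries, and both 4 h libraries lie above all the others. Against DMSO the log2 fold change was -0.02 at 2 h (95% interval -0.44 to 0.40, edgeR adjusted p = 0.983) and 0.58 at 4 h (SE 0.20, 0.18 to 0.97, adjusted p = 0.136). Set directly against 2 h, the 4 h value was 0.59 (SE 0.20, 0.18 to 1.01, adjusted p = 0.998), so that neither difference passed the threshold. With the block by column letter the difference between 4 h and DMSO was 0.59 (adjusted p = 0.0322). Without DMSO library B the 4 h difference from DMSO was 0.79 (adjusted p = 0.0496), and without DMSO library A it was 0.37 (adjusted p = 0.627).

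Counted together, 1 of the 10 member regions was called higher at 2 h, where 2.22% of all regions were, and 1 of 10 at 4 h, where 1.52% were. In both cases it was DNAJB4. Those shares are 269 and 184 regions, beside 48 and 59 lower; with total count scaling they were 166 and 120, beside 87 and 83 lower. At 2 h and at 4 h 0 of 10 were called lower, where 0.396% and 0.487% of all regions were. At an unadjusted p under 0.05 edgeR had 3 members higher at 2 h, where 8.88% of all regions were, and 5 at 4 h, where 8.2% were. At the same limit 0 members were lower at either time, where 5.44% and 5.09% of all regions were. limma-voom also called DNAJB4 alone at each time and 0 members lower. DESeq2 called 0 of the 5 members to which it gave an adjusted p, in either direction. It gave none to DNAJB4, whose log2 fold change there was 1.50 (DESeq2 unadjusted p = 2.33e-08) and 1.39 (3.08e-07). A share of 1 in 10 regions is a single gene, and nothing about the group follows from it.

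The 9 uncalled members had log2 fold changes from -0.02 to 0.50 at 2 h and from 0.01 to 0.58 at 4 h. Both treated libraries lay above both DMSO libraries in 7 of these 9 at 2 h and in 7 at 4 h. With DNAJB4 it was 8 of 10 at each time, where 21.9% and 20.2% of all regions did so. This count rests on TMM scaling, and regions of like level were not set beside it. The members were also chosen with earlier results of these data known, so the contrast with all regions is not a neutral one. With cyclic loess and limma-trend the 2 h log2 fold changes of DNAJB1 and the left region of HSP90AA1 were 0.006 and 0.09. HSPA8 and the HSPE1 side kept 0.44 and 0.47 in that fit. The HSPD1 side and HSPE1 side rows, counted separately, are 694 bases apart. The median log2 fold change of the 10 was 0.23 at 2 h and 0.27 at 4 h, or 0.19 and 0.23 over the 9 without DNAJB4, beside -0.01 and -0.01 over all regions. With the same DMSO libraries in both comparisons, these counts are not separate. The 9 regions without DNAJB4 took 0.102% and 0.0936% of all counts in DMSO, 0.112% and 0.112% at 2 h, and 0.120% and 0.107% at 4 h. Their 95% intervals lay between -0.44 and 0.84 at 2 h and between -0.35 and 0.97 at 4 h, so that each leaves out a change of 2-fold in either direction and none leaves out every smaller change.

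**Figure D3:**
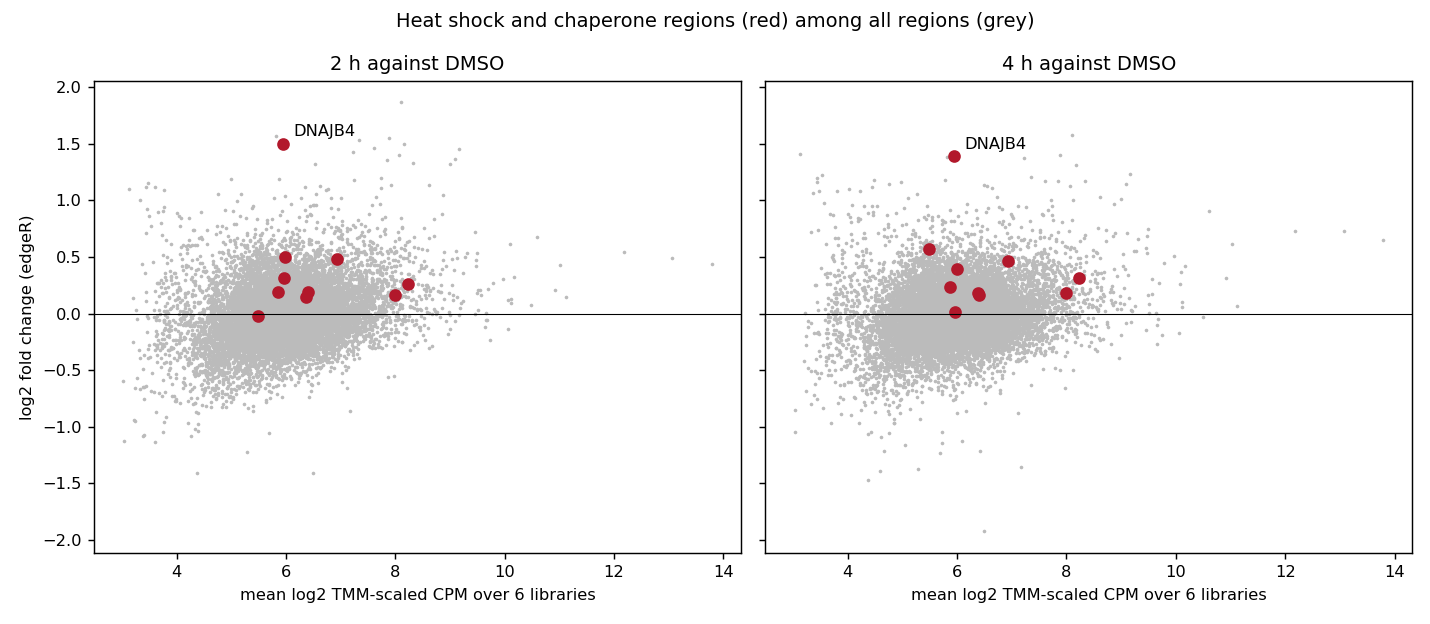
Mean level (x axis, log2 TMM-scaled CPM over the 6 libraries) and log2 fold change (y axis, edgeR) of all 12123 regions (grey) with the 10 member regions (red), for 2 h and 4 h against DMSO. DNAJB4 stands at the upper edge, with 1.50 and 1.39, and the other members lie within the cloud, with medians of 0.19 and 0.23.

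Between 2 h and 4 h, 0 of 10 member regions were called by edgeR, DESeq2 or limma-voom, and 0 (0%) of all regions were called in edgeR. At an unadjusted p under 0.05 each of the 3 tools had 1 member, which in edgeR was COQ10B, and edgeR had 3.27% of all regions. DNAJB4 had a log2 fold change of -0.11 from 2 h to 4 h (95% interval -0.42 to 0.20), and HSPH1 of -0.30 (-0.66 to 0.06). The other 7 regions without COQ10B had values from -0.11 to 0.06, and the intervals of the 9 without DNAJB4 reached from -0.66 to 1.01.

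The call at DNAJB4 held in each of 15 other fits that gave it an adjusted p. Its log2 fold change lay between 1.40 and 1.61 at 2 h, with adjusted p-values from 4.79e-15 to 4.57e-06, and between 1.29 and 1.50 at 4 h, with adjusted p-values from 6.7e-12 to 9.3e-05. The lowest value at each time came without DMSO library A and the highest without DMSO library B. HSPA8, by contrast, passed the threshold in 5 of 16 other fits at 2 h and in 1 of 16 at 4 h.

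**Figure D4:**
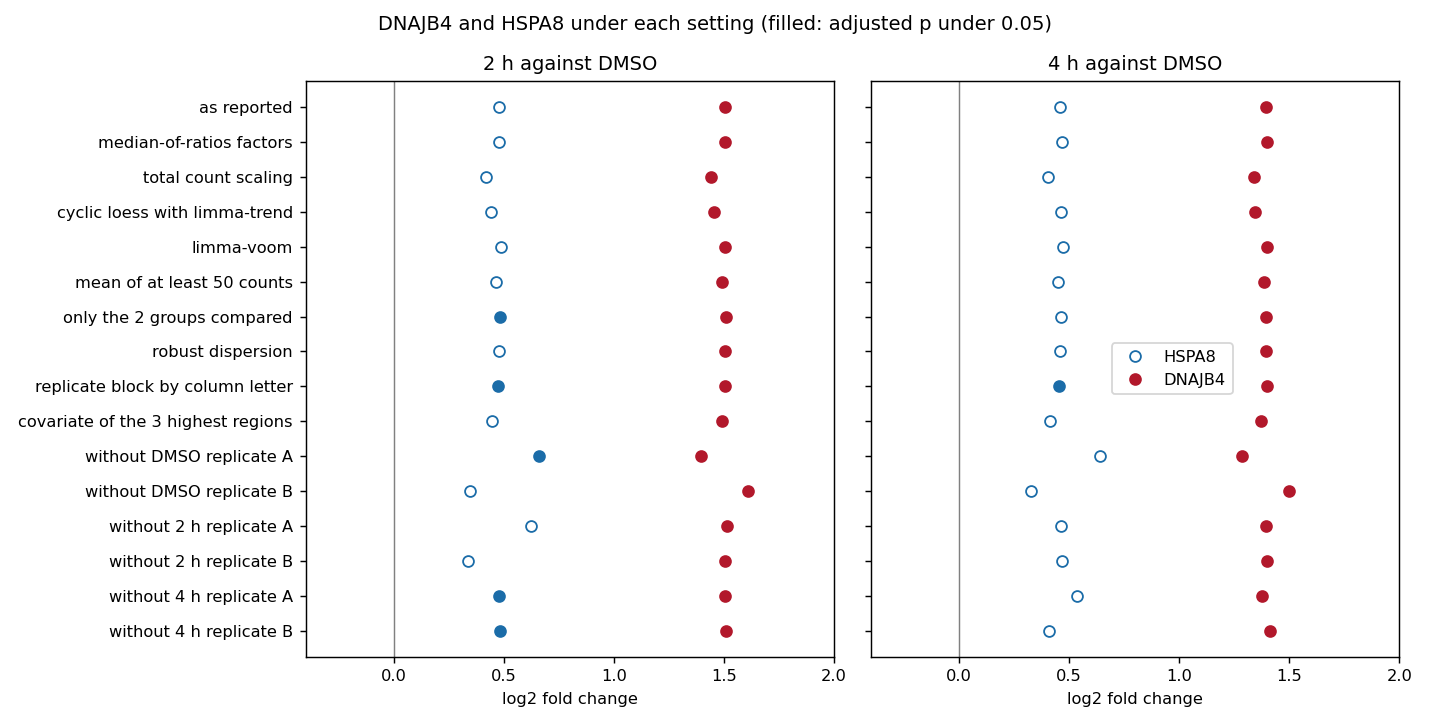
Log2 fold changes (x axis) of DNAJB4 (red) and HSPA8 (blue) at 2 h and 4 h against DMSO in the reported fit (top line) and in 15 other fits (y axis); DESeq2 is left out because it gave no adjusted p for DNAJB4. Filled points have an adjusted p under 0.05, as all DNAJB4 points do, with values from 1.40 to 1.61 and from 1.29 to 1.50.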

How the data were processed

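Ser5 Pol II ChIP-seq was analysed in 6 libraries of Rh30 cells, and the other 12 samples, made with other antibodies, were not used. The authors deposited raw read counts per region for 12123 regions, as whole numbers with no normalization. Tools listed in the submitters' processing notes are Bowtie2, DESeq2, DiffBind, MACS2 and Trimmomatic 0.32, and builds hg19 and dm3; the sources used here do not give their roles, nor whether duplicates were removed or input subtracted. Columns name a treatment and a letter, and letters were not tied to the replicate numbers of the labels.

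Counts were fitted with edgeR 4.0.16 in R 4.3.3 (quasi-likelihood test, TMM factors, all 6 libraries in 1 fit), with Benjamini-Hochberg adjustment over all regions and a threshold of 0.05. filterByExpr removed 0 regions, so the planned fit without a filter is the reported one and is not counted as an alternative. SE is the size of the log2 fold change over the square root of F, and 95% intervals use the fit's total degrees of freedom. Alternatives used DESeq2 1.42.0, limma 3.58.1, other scalings, filters, blocks and covariates, and left-out libraries. Motifs were searched in Python 3.11.15 and promoters aligned with Biopython 1.88.

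Members, lists and tests were chosen with earlier results of these data known. All rows in the windows were named, as the rule asked. Other chaperone genes need an hg19 annotation and were not analysed here, and for that reason exons, introns and the identity of the cells by marker genes were not examined.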

Additional observations from a re-analysis of the deposited data

How the results depend on the processing

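Over 17 alternatives, 500 values of single member regions were set beside the reported ones. Of these, 466 kept sign and side of the threshold, 12 came to pass it and 0 lost a call. The other 22, none of them called and all between -0.19 and 0.19, changed sign. The 17 include the reported fit read at an adjusted p under 0.01, where no sign can change. Values to which DESeq2 gave no adjusted p, such as DNAJB4 against DMSO, were not counted. Against DMSO it gave none to 7991 regions at 2 h and 7286 at 4 h, so its counts over all regions cover fewer regions. DNAJB4 alone made the reported 1 call at each time. Called members numbered 2 at 2 h when the fit held just the groups compared, 2 at 2 h and 2 at 4 h with the share of the 3 highest regions as a covariate, and 0 at both times with DESeq2, which gave no adjusted p for DNAJB4. Leaving out 1 library gave from 1 to 2 called members at 2 h and from 1 to 2 at 4 h, the added ones being HSPA8 (2 h, without DMSO library A or either 4 h library) and COQ10B (4 h, without DMSO library B). With a replicate block by column letter, edgeR called 3 members at 2 h, HSPA8 (adjusted p = 0.00666), the HSPE1 side (0.033) and DNAJB4. It called 4 at 4 h, DNAJB4 with HSPA8, the left region of HSP90AA1 and COQ10B (adjusted p = 0.014, 0.038 and 0.0322 for the latter 3). The letters are not replicate numbers of the labels; deviations of the A libraries from their group means correlated across regions with r of 0.218, 0.278 and 0.158. The cause of these differences was not tested. Calls over all regions moved too, from 269 rises and 48 falls at 2 h to 166 and 87 with total count scaling, 130 and 26 with cyclic loess and limma-trend, 96 and 3 with DESeq2, and 629 and 230 with the block, and from 184 and 59 at 4 h to 120 rises with total count scaling, 52 and 4 with DESeq2, and 540 and 203 with the block. Regions called lower went to 81 at 2 h (366 higher) when just the groups compared were fitted and to 135 and 109 at 2 h and 4 h with the covariate. Without DMSO library A, 2 h library A or 2 h library B the rises at 2 h were 153, 140 and 127, with 15 and 20 falls for the latter 2 and 87 and 80 falls without 4 h library A or B. At 4 h the rises were 89, 314 and 93 without DMSO library A, DMSO library B or 4 h library B, the last with 27 falls, and 1 region was called between 4 h and 2 h without 4 h library A. At an adjusted p under 0.01, 133 rises and 10 falls were called at 2 h and 83 and 18 at 4 h. Windows widened by 1000 bases hold 12 rows and the same calls. The longer heat shock element was at 3 member promoters in place of 8.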
